A study of Mus musculus with 23 samples.

Results

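The medium and high fluorescence bins of mice dosed with ATV-TfR were compared, that is, the middle and the brightest tertile of the dye-positive brain cells. An ATV (antibody transport vehicle) has an Fc part engineered to bind a receptor of brain blood vessels. ATV-TfR binds the transferrin receptor, encoded by Tfrc. The 4 libraries are the medium and the high bin of pool 1 and of pool 2, matched to the barcodes by the library number each barcode carries. Cells were kept if they had 500 genes and 800 UMIs (unique molecular identifiers, 1 per captured RNA molecule) or more and no more than 10% mitochondrial UMIs, and estimated doublets were removed. This left 59136 cells of 218732 in the whole series. The medium bin held 13979 and 13534 cells (pools 1 and 2) and the high bin 16493 and 15130.

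All mice of these libraries carried the TfR mu/hu KI genotype, a knock-in that makes the receptor part mouse and part human, and were 3.3 months old. They received 45 mg/kg of DNP02_hIgG1_LALAPG_ATV35.23.2 labelled with the dye Alexa647 and were killed 24 h later. A pool is 1 male plus 1 female brain, and all bins of a pool come from the same mice. Brain cells were dissociated with Actinomycin D and anisomycin, which block RNA and protein synthesis. Sorting by dye signal then gave negative, low, medium and high bins, whose gates cut the dye-positive cells of the ATV-TfR mice into tertiles. For comparison, 4 libraries of the same bins came from mice with a CD98hc knock-in dosed with ATV-CD98hc, an antibody to the amino acid carrier subunit CD98hc, and sorted with the same gates. Their age, dose and time after the dose were also 3.3 months, 45 mg/kg and 24 h. Antibody and genotype change together between those mice and the ATV-TfR mice and cannot be told apart. Both bins were bright, so no comparison here is with undosed cells. A library of fixed cell number was made from each bin, so shares describe the inside of a bin and not how the cells of a class spread over bins.

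The transferrin receptor takes iron-loaded transferrin into cells by clathrin-coated pits and recycles through endosomes. Brain capillary endothelium carries much of it, and antibodies that bind it can cross the vessel wall in vesicles. Endothelium changes along the vessel tree, from arteries through capillaries, where most carriers of the blood-brain barrier sit, to veins, and each zone has its own genes. Astrocytes wrap the vessels with endfeet, clear glutamate from synapses and store and export lipid.

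Total UMIs were 72958254 and 72555315 in the medium libraries and 81663022 and 81402486 in the high libraries. Classes were named by these markers, so their sums describe the classes and do not test the names. The 12 endothelial markers summed to 28083 and 27911 CPM (counts scaled to 1e6 UMIs per sum) in endothelial-like cells of the medium bin and to 29550.3 and 29218 CPM in those of the high bin. The 12 astrocyte markers summed to 21788 and 22419 CPM in astrocyte-like cells of the medium bin and to 28208 and 28444 CPM in those of the high bin. Any 2 of the 4 libraries shared between 0.356% and 0.615% of the barcodes of the smaller one, against a median of 0.445% over the 253 pairs of libraries of the series.

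Endothelial-like cells made up most of the high bin and astrocyte-like cells most of the medium bin. Endothelial-like cells were 18.01% and 17.1% of the medium libraries and 89.4% and 91.9% of the high libraries. Astrocyte-like cells were 74.9% and 76.1% of the medium libraries and 3.44% and 2.58% of the high libraries. The bins did not overlap for either class, and the 2 pools lay close together.

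**Figure D1:**
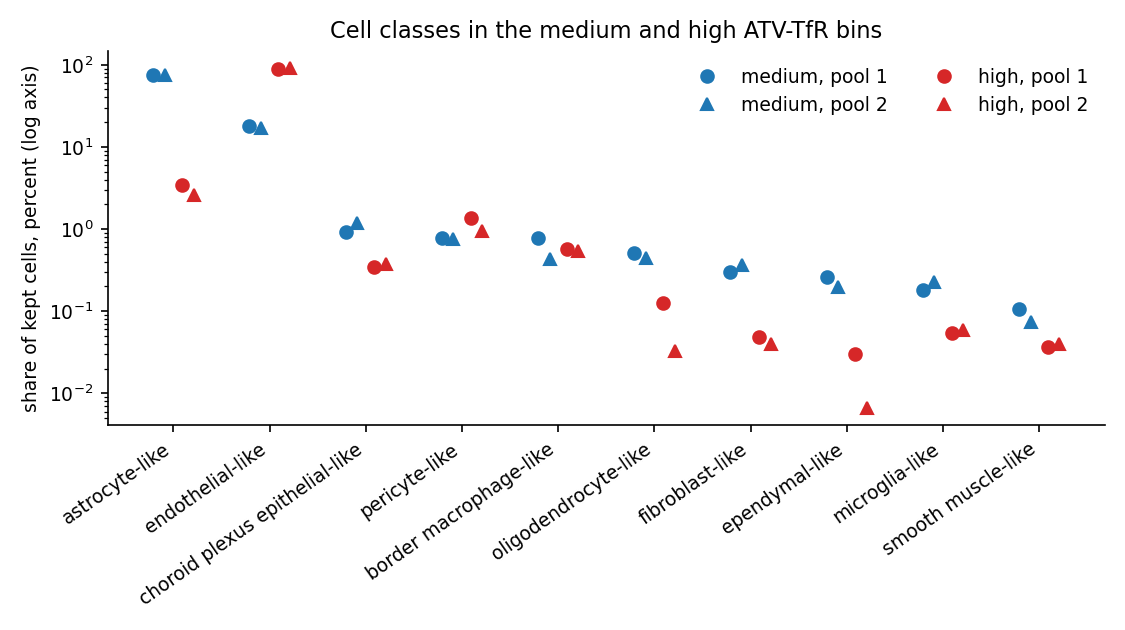
Share of each of the 10 named cell classes in percent of the kept cells (vertical log axis), for the medium (blue) and high (red) ATV-TfR libraries of pool 1 (circles) and pool 2 (triangles). Endothelial-like cells rose from 17.6% to 90.6% on average and astrocyte-like cells fell from 75.5% to 3.01%, while border macrophage-like cells overlapped between the bins.

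By edgeR's quasi-likelihood test with Benjamini-Hochberg adjustment, 9 of 10 classes differed between the bins (90%), 2 with a higher (20.0%) and 7 with a lower share (70.0%) in the high bin. The share of endothelial-like cells was 17.6% ± 0.642 in the medium and 90.6% ± 1.79 in the high bin (SD, n = 2), a log2 change of 2.37 (SE 0.315, edgeR adjusted p = 1.85e-08). Astrocyte-like cells went from 75.5% ± 0.842 to 3.01% ± 0.604 (SD, n = 2), a log2 change of -4.65 (SE 0.371, edgeR adjusted p = 2.02e-14).

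Of the other vascular cells, pericyte-like cells, the contractile cells that sit on capillaries, rose and smooth muscle-like cells fell. Pericyte-like cells were 0.773% and 0.761% of the medium and 1.36% and 0.958% of the high libraries, a log2 change of 0.60 (SE 0.274, edgeR adjusted p = 0.0398). Their call was lost in 3 of the 4 fits that left out 1 library and when the 4 libraries were fitted alone (edgeR adjusted p = 0.185). Smooth muscle-like cells, which ring arteries, numbered 15 and 10 in the medium and 6 and 6 in the high libraries, a log2 change of -1.24 (SE 0.539, edgeR adjusted p = 0.0337). That call too was lost in 3 of the 4 fits that left out 1 library. Counted among cells outside the endothelial-like class, pericyte-like cells were 0.930% ± 0.0171 of the medium and 12.3% ± 0.674 of the high bin (SD, n = 2).

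Among immune cells, border macrophage-like cells, which live along vessels and in the meninges, did not pass the test, while microglia-like cells, the macrophages of the brain tissue, fell. Border macrophage-like cells were 0.773% and 0.436% of the medium and 0.570% and 0.542% of the high libraries (log2 change -0.12, SE 0.309, edgeR adjusted p = 0.696). Microglia-like cells were 0.179% and 0.229% of the medium and 0.0546% and 0.0595% of the high libraries (log2 change -1.82, SE 0.435, edgeR adjusted p = 2.15e-04). The high libraries held 9 microglia-like cells each. Outside the endothelial-like class both took a higher share in the high bin, border macrophage-like cells 6.02% against 0.734% and microglia-like cells 0.623% against 0.247%, so the direction for microglia-like cells turns with the denominator.

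The cells of the ventricle wall, the meninges and the myelin sheath were fewer in the high bin. Ependymal-like cells, the ciliated lining of the ventricles, numbered 36 and 27 in the medium and 5 and 1 in the high libraries (log2 change -3.53, SE 0.573). Fibroblast-like cells fell from 42 and 49 cells to 8 and 6 (log2 change -2.88, SE 0.438). Oligodendrocyte-like cells, which make myelin, fell from 71 and 60 to 21 and 5 cells (log2 change -2.53, SE 0.408), and choroid plexus epithelial-like cells, which secrete cerebrospinal fluid, from 129 and 162 to 57 and 57 (log2 change -1.55, SE 0.29). The edgeR adjusted p was 6.58e-06 or lower for these 4 classes. Among cells outside the endothelial-like class the choroid plexus epithelial-like share was higher in the high bin (log2 change 1.60), as was that of smooth muscle-like cells (1.86). Oligodendrocyte-like (0.57) and fibroblast-like cells (0.23) did not pass by that share, and the oligodendrocyte-like share went from 0.619% to 1.197% in pool 1 but from 0.535% to 0.407% in pool 2.

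Cells that no list named were 3.23% ± 0.116 of the medium and 4.05% ± 0.818 of the high bin (SD, n = 2). A cluster with markers of both pericytes and endothelium (cluster 28) was 0.379% and 0.377% of the medium libraries and 3.33% and 2.81% of the high libraries. A cluster with markers of astrocytes and endothelium (cluster 31) was 0.594% and 1.03% of the medium and 0.728% and 0.370% of the high libraries. Whether these are single cells, attached pairs or doublets that the scoring missed was not tested.

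By share of kept cells, the step from medium to high was steeper with ATV-TfR than with ATV-CD98hc for endothelial- and astrocyte-like cells. With ATV-CD98hc the endothelial-like share was already 81.2% and 81.1% in the medium libraries and reached 90.8% and 91.4% in the high libraries. The difference between the antibodies' log2 changes was 2.20 (SE 0.335, edgeR adjusted p = 2.23e-08), and 5 of 10 classes passed for such a difference (50%), 1 with the higher (10.0%) and 4 with the lower change (40.0%) in ATV-TfR. It was -2.34 (SE 0.335, edgeR adjusted p = 7.47e-09) for astrocyte-like cells, 8.00% and 9.83% of the ATV-CD98hc medium and 1.89% and 1.72% of its high libraries. Among cells outside the endothelial-like class the steps were closer. There astrocyte-like cells went from 91.5% to 32.1% on average with ATV-TfR and from 47.3% to 20.3% with ATV-CD98hc. Fibroblast-like cells fell with ATV-TfR but were 0.669% and 0.512% of the medium and 0.816% and 0.695% of the high libraries with ATV-CD98hc, a difference of -3.23 (SE 0.601, edgeR adjusted p = 2.41e-06). Ependymal-like cells differed likewise, by -3.65 (SE 0.702, edgeR adjusted p = 3.67e-06). Outside the endothelial-like class, fibroblast-like cells went from 0.402% to 0.473% on average with ATV-TfR and from 3.14% to 8.48% with ATV-CD98hc. Ependymal-like cells went there from 0.277% to 0.183% and from 0.961% to 2.23%. Differences between the antibodies by that share were not tested for any class.

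Within endothelial-like cells, the high bin had lower levels of arterial genes and higher levels of capillary genes, of Tfrc and of several carriers. Of 12409 genes tested over summed UMIs of 2517 and 2314 cells (medium) and 14739 and 13903 cells (high), 595 rose and 1268 fell in the high bin, together 1863 (15%; 4.79% rose and 10.2% fell). The levels of the bins did not overlap for 54.6% of the genes, and the median log2 change of all genes was 0.01. Counts within gene lists are to be read against the 4.79% of all genes that rose and the 10.2% that fell. Median depth was 2392 and 2552 UMIs per endothelial-like cell in the medium and 3103 and 3534 in the high libraries. The part of depth in the results was not tested.

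Arterial genes fell. Of the 14 genes of the arterial list, 13 fell and none rose, with a median log2 change of -2.02 against 0.01 over all genes tested. Gkn3, a secreted gastrokine used as an arterial marker, stood at 353 and 348 CPM in the medium and at 54.3 and 45.4 CPM in the high libraries. Its log2 change was -2.74 (SE 0.173, edgeR adjusted p = 1.82e-09), and every medium library lay above every high library. Vegfc, a growth factor for lymphatic and arterial vessels, fell from 107 and 117 CPM to 26.6 and 20.5 CPM (log2 change -2.18, SE 0.102). Bmx, a tyrosine kinase of arterial endothelium, fell from 92.7 and 99.4 CPM to 25.4 and 20.5 CPM (log2 change -2.00, SE 0.129). The edgeR adjusted p was 2.47e-09 or lower for both.

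Other arterial members moved the same way. The semaphorin Sema3g fell by 1.41 on the log2 scale, Stmn2, a stathmin that binds tubulin, by 2.00, the matrix protein gene Mgp by 3.07, and the connexin gene Gja4 by 2.04. The Notch target Hey1 fell by 0.78 and the ephrin gene Efnb2 by 0.59. Dll4, a Notch ligand, was the 1 arterial member that did not pass (log2 change 0.00). All 13 calls held in each of the 4 fits that left out 1 library. In the Notch list, 4 of 11 tested genes fell (Hey1, Hey2, Jag1, Jag2) and none rose. The call for Jag2 was lost in 1 of those 4 fits. None of the 4 passed within cluster 21 or cluster 22, groups of endothelial-like cells led by capillary and by venous genes, or in cells without a UMI of the 12 astrocyte markers.

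**Figure D2:**
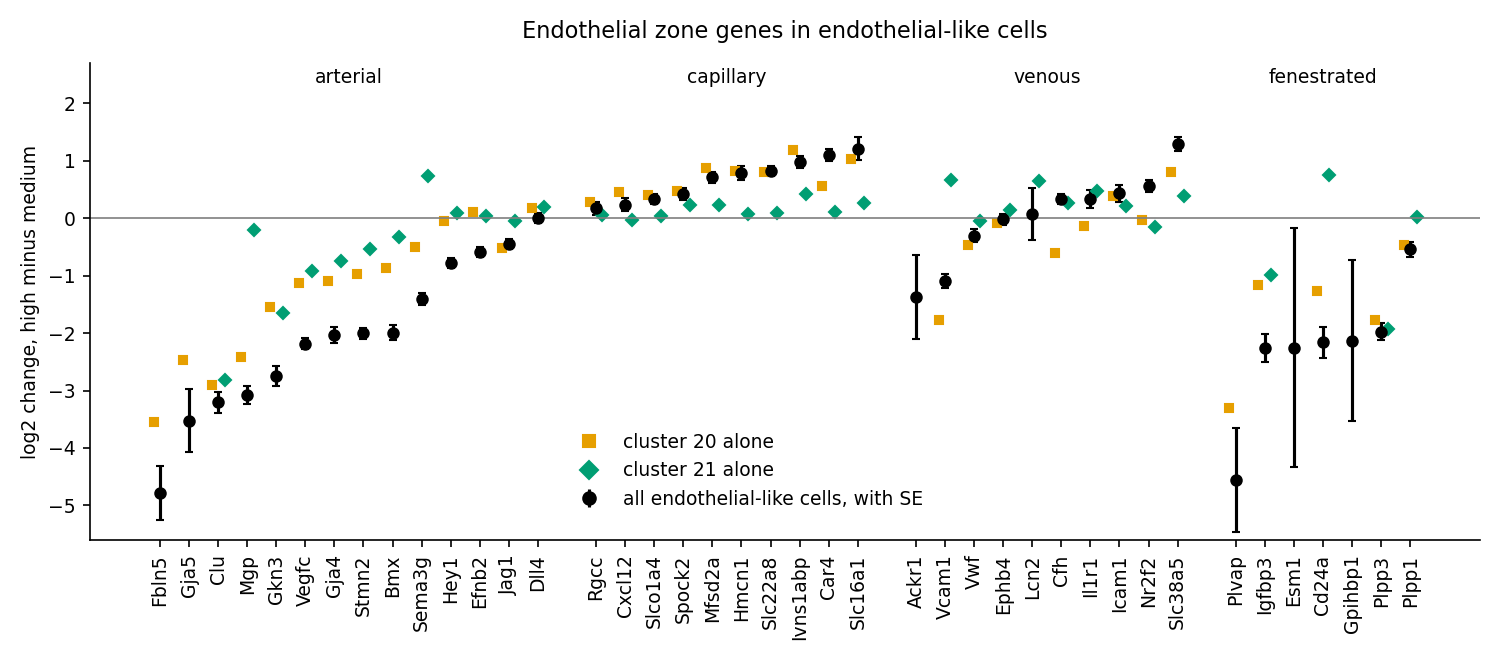
Log2 change, high minus medium, in endothelial-like cells for the tested genes of the arterial, capillary, venous and fenestrated lists. Black points with bars give the change and its SE over all endothelial-like cells, orange squares cluster 20 alone and green diamonds cluster 21 alone. Of the arterial genes, all but Dll4 lie below 0 in all cells, and within cluster 21 they lie closer to 0 or, as Sema3g, above it. The capillary genes lie above 0 in all cells and near 0 within cluster 21.

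Capillary genes rose. Of the 10 genes of that list, 8 rose and none fell, with a median log2 change of 0.75. Car4, a carbonic anhydrase on the surface of capillary endothelium, went from 670 and 543 CPM to 1258 and 1213 CPM (log2 change 1.10, SE 0.109, edgeR adjusted p = 6.13e-07). Slc16a1, the lactate and ketone body carrier MCT1, went from 267 and 185 CPM to 531 and 468 CPM (log2 change 1.21, SE 0.193, edgeR adjusted p = 1.45e-04). Neither gene overlapped between the bins. Mfsd2a, a carrier of lipid-bound docosahexaenoic acid, went from 247 and 248 CPM to 379 and 395 CPM (log2 change 0.72, SE 0.0955, edgeR adjusted p = 2.1e-05). The calls for Slco1a4 and Spock2 were lost when single libraries were left out.

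Venous genes were split and genes of the fenestrated list fell. Of 10 tested venous genes, 4 rose and 1 fell over all endothelial-like cells. Within cluster 22, with Vwf, Il1r1 and Slc38a5 of this list among its leading genes, none rose and 5 of 10 fell (median log2 change -0.65), and within cluster 20 1 rose and 3 of 8 tested fell (median log2 change -0.11). Slc38a5, a glutamine carrier, rose from 84.3 and 73.4 CPM to 193 and 175 CPM (log2 change 1.29, SE 0.128, edgeR adjusted p = 5.87e-07), whereas Vcam1, an adhesion molecule for leukocytes, fell from 55.3 and 55.4 CPM to 27.0 and 22.3 CPM (log2 change -1.10, SE 0.124, edgeR adjusted p = 3.21e-06). Of the 7 genes of the fenestrated list, 5 fell. Among them were Plpp3, a phosphatase of lipid messengers (log2 change -1.97), and Igfbp3, a carrier of insulin-like growth factors (-2.26). Cluster 16, with Plvap and Igfbp3 among its leading genes, held 2 cells of medium pool 2, 1 cell of high pool 2 and no cell of pool 1. Nearly all cells behind these falls therefore belonged to other clusters. Within cluster 21, 1 of 4 tested fenestrated genes fell (Plpp3), and Igfbp3 stood at -0.99 without passing (edgeR adjusted p = 0.433). Plvap, the diaphragm protein of fenestrae, was at 0.308 and 2.80 CPM in the medium libraries, and its call was lost without medium pool 2 (edgeR adjusted p = 0.488).

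Different clusters held most endothelial-like cells of the bins. Cluster 20, with Gkn3, Stmn2 and Sema3g among its leading genes, held most of them in both medium libraries, and cluster 21, led by Ctla2a, Car4 and Pglyrp1, in both high libraries. Within cluster 20 alone, 11 of 14 arterial genes fell and 9 of 10 capillary genes rose. Within cluster 21 alone, 2 of 12 tested arterial genes fell (Gkn3 and Clu), Sema3g stood 0.74 higher in the high bin on the log2 scale without passing (edgeR adjusted p = 0.126), and none of the 10 capillary genes passed. Over all genes, 1058 passed within cluster 20 (8.89%), 710 within cluster 21 (5.34%) and 532 within cluster 22 (5.32%), whose leading genes include Ndnf, Vwf and Slc38a5. List counts within a cluster are to be read against these shares. Within cluster 21, 126 of the 595 rises and 408 of the 1122 falls that could be tested there passed.

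Tfrc, the gene of the receptor that ATV-TfR binds, rose in endothelial-like cells of the high bin. Its level was 106 and 129 CPM in the medium and 232 and 254 CPM in the high libraries, and in the dimmer bins 53.9 and 38.4 CPM (negative) and 33.5 and 50.9 CPM (low). The 2 high libraries lay above all other ATV-TfR libraries. The log2 change from medium to high was 1.12 (SE 0.109, edgeR adjusted p = 5.41e-07), 0.84 within cluster 20 (edgeR adjusted p = 4.91e-05) and 0.49 within cluster 21 (edgeR adjusted p = 0.0115). Cells assigned to single mice by sex-specific RNAs gave the same direction in 4 of 4 mice, for example 88.4 CPM in the medium and 206 CPM in the high bin of the male of pool 1. How RNA of the human part of the knock-in receptor gene was counted is not given in the sources used here.

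**Figure D3:**
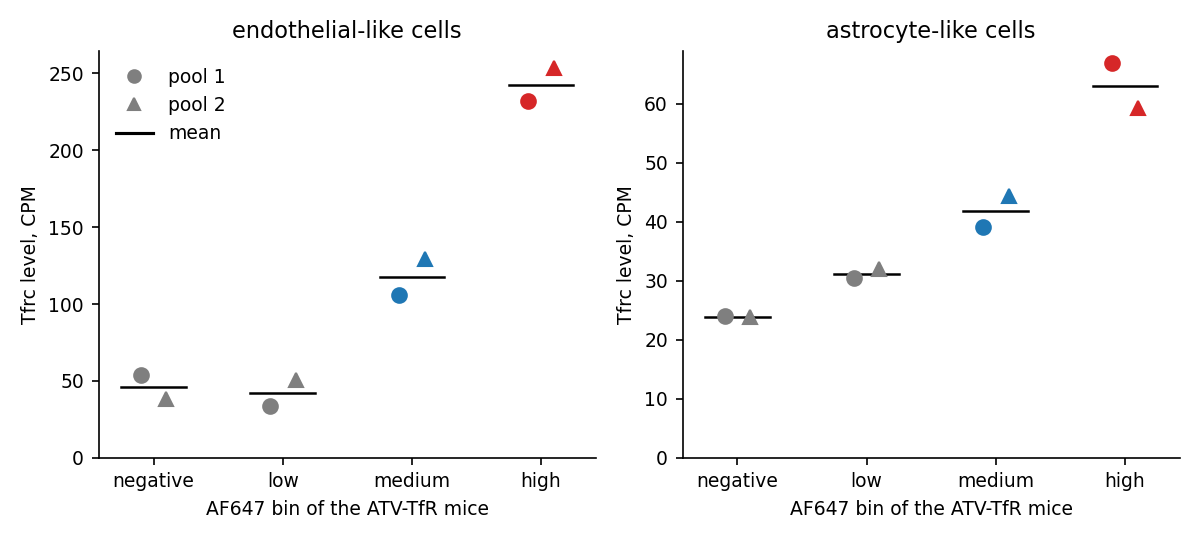
Level of Tfrc in CPM (vertical axis from 0) in endothelial-like (left) and astrocyte-like cells (right) of the 4 AF647 bins of ATV-TfR mice, with pool 1 as circles, pool 2 as triangles and the mean as a line. In both classes the 2 high libraries (red) lie above the 2 medium libraries (blue).

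Of 18 tested genes for iron handling, 5 rose and 4 fell (median log2 change 0.08). Those that rose were Tfrc, Slc39a8, Slc40a1, Steap3 and Ncoa4. Of the 9 calls 5 held in every fit that left out a library, while those for Ncoa4 and for the falls of Trf, Slc25a37 and Slc39a14 were lost in at least 1. Slc39a8, a metal importer, went from 59.5 and 45.3 CPM to 118 and 120 CPM (log2 change 1.25, SE 0.112, edgeR adjusted p = 1.73e-07), and Slc40a1, the iron exporter ferroportin, from 187 and 181 CPM to 304 and 310 CPM (log2 change 0.81, SE 0.0897, edgeR adjusted p = 2.41e-06). Cp, the ferroxidase ceruloplasmin, fell from 232 and 222 CPM to 138 and 130 CPM (log2 change -0.69, SE 0.105, edgeR adjusted p = 9.81e-05). Within cluster 21, Tfrc, Slc39a8 and Slc40a1 passed, and Steap3, Ncoa4 and Cp did not.

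Carriers of amino acids and of the barrier moved as well. Of 18 barrier carriers and efflux pumps, 9 rose and none fell (median log2 change 0.29), though 6 of those 9 calls were lost in at least 1 fit that left out a library. Within cluster 20, 7 of the 18 rose, within cluster 22 1 rose, and within cluster 21, which holds most endothelial-like cells of the high bin, none did (median log2 change 0.076). Of 17 amino acid carriers, 6 rose and 6 fell, and 8 of these 12 calls held in every fit that left out a library. Within cluster 21, 1 rose and 4 fell, and neither Slc7a5 nor Slc3a2 passed. Slc7a5, the large neutral amino acid carrier LAT1, rose from 601 and 595 CPM to 931 and 1052 CPM (log2 change 0.80, SE 0.17, edgeR adjusted p = 0.00234), and its partner Slc3a2, which encodes CD98hc, from 447 and 458 CPM to 631 and 663 CPM (log2 change 0.59, SE 0.0919, edgeR adjusted p = 1.23e-04). Slc7a10, a carrier of small amino acids known from astrocytes, fell from 10.3 and 13.7 CPM to 0.794 and 0.548 CPM.

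Genes of Wnt signalling, the pathway that maintains the barrier, rose more often than they fell (7 rose and 1 fell of 20, median log2 change 0.20). Of these 8 calls 3 held in every fit that left out a library, and within cluster 21 2 genes rose (Nkd1 and Ctnnb1) and none fell. Apcdd1, a feedback inhibitor that Wnt induces, rose from 253 and 251 CPM to 418 and 431 CPM (log2 change 0.82, SE 0.0944), and Nkd1, another such inhibitor, from 168 and 182 CPM to 284 and 319 CPM (log2 change 0.86, SE 0.0907). The edgeR adjusted p was 3.64e-06 or lower for both. Sox17, a transcription factor known from arteries, fell from 721 and 745 CPM to 492 and 526 CPM (log2 change -0.45, SE 0.097, edgeR adjusted p = 0.00258). In the list of VEGF, angiopoietin and apelin signalling, 4 of 14 tested genes rose (Kdr, Angpt2, Nrp1, Flt4) and 3 fell (Vegfa, Angpt1, Pgf), with the calls for Flt4 and Pgf lost in fits that left out a library. Within cluster 21 none rose and 1 fell (Vegfa). The receptor Kdr changed by 0.69 on the log2 scale over all endothelial-like cells, and Vegfa, its ligand, which has its highest level in astrocyte-like cells, fell from 13.6 and 17.3 CPM to 1.42 and 1.01 CPM.

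Next came the machinery that takes up and sorts the receptor, to be read against the 15% of all genes that passed in these cells. Of 38 clathrin and endosome sorting genes, 2 rose and 5 fell, and only the fall of Ehd1, a recycling protein, held in every fit that left out a library (log2 change -0.55, SE 0.0944, edgeR adjusted p = 3.37e-04). Of 20 tested Rab genes, Rab4a, which acts in fast recycling, rose by 0.71 (SE 0.0988), Rab11fip1 rose by 0.54 (SE 0.0917) and Rab11fip5 fell, a call that held in 1 of the 4 fits that left out a library. Within cluster 21, neither Ehd1 nor these 3 Rab genes passed. Of 31 tested lysosome genes none rose and 3 fell, and the call for Ctss was lost in at least 1 fit that left out a library. Fcgrt, the neonatal Fc receptor that recycles antibodies, went from 577 and 587 CPM to 685 and 709 CPM (log2 change 0.33, SE 0.0992, edgeR adjusted p = 0.0291), a call lost in each fit that left out a library. The sterol list had 1 rise (Stard4) among 18 genes and the interferon list 4 falls among 16. Fits that left out a library took away the call for Stard4 and 3 of the 4 interferon calls (Oasl2, Ifitm3, Irf7).

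Of the 595 genes that rose, 234 (39.3%, and 1.89% of the genes tested) are highest in endothelial-like cells, as are 92 (7.26%) of those that fell. Genes highest in endothelial-like cells were 13.1% of all genes tested. Among these, wide rises and falls beyond those above were these. Tmsb10, a thymosin that binds actin, rose from 410 and 446 CPM to 984 and 1253 CPM (log2 change 1.46, SE 0.136), Rflnb, an actin regulator, from 123 and 102 CPM to 300 and 286 CPM (1.46, SE 0.106), and Ndnf, a secreted growth factor, from 101 and 91.8 CPM to 260 and 239 CPM (1.44, SE 0.0865). Tiam1, an activator of Rac, rose by 1.09 and the monooxygenase gene Fmo2 by 0.95. Cdh13, a cadherin without an intracellular part, fell from 96.0 and 110 CPM to 12.8 and 13.2 CPM (log2 change -2.91, SE 0.129). Mannr fell by 2.01, Lypd1 by 1.97 and Egfl8 by 1.83. Among genes that are higher in another class, Net1, an activator of RhoA, rose by 1.11, Gatm, an enzyme of creatine synthesis, by 1.07, and Ccn2, a matrix protein, by 1.01. All of these had an edgeR adjusted p of 0.00105 or lower over all endothelial-like cells. Within cluster 21, Fmo2, Cdh13, Mannr, Egfl8 and Gatm did not pass, with log2 changes of 0.14 for Fmo2, -0.16 for Egfl8 and 0.21 for Gatm. In cells without a UMI of the 12 astrocyte markers, Fmo2 did not pass (edgeR adjusted p = 0.172).

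Genes of astrocytes were lower in endothelial-like cells of the high bin. Of the 12 astrocyte markers, 11 fell and none was at 0, and they summed to 931 and 1146 CPM in the medium and 455 and 495 CPM in the high libraries. As a percent of its level in astrocyte-like cells of the same library, the median marker stood at 2.15% and 2.86% in the medium and at 0.181% and 0.201% in the high libraries. Of the 1268 genes that fell, 452 (35.6%) have their highest level in astrocyte-like cells, against 12.6% of all genes tested. Gpc5, Lsamp and Cadm2, surface proteins of glia and neurons and among the widest falls of well-counted genes that are higher in another class, belong there, with log2 changes of -4.47, -4.34 and -3.97.

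In endothelial-like cells without a UMI of the 12 astrocyte markers, 356 genes passed (3.57%). Those 12 include S1pr1, a receptor that endothelium also expresses, at 461 and 528 CPM in the endothelial-like cells of the medium and at 375 and 412 CPM in those of the high libraries. The filter therefore drops cells for their own S1pr1 as well as for RNA of the other 11 markers. It kept 14.5% and 8.60% of the endothelial-like cells of the medium and 28.0% and 23.1% of those of the high libraries. The part of these cell numbers in lost calls was not tested. In the cells kept, Gpc5, Lsamp and Cadm2 fell by 4.39, 4.17 and 3.85 on the log2 scale and passed. Of the falls of genes highest in astrocyte-like cells, 223 could be tested there, of which 220 kept their direction and 105 passed. Of 13 tested arterial genes 7 fell there, and of 10 capillary genes 6 rose. Markers of pericytes summed to 370 and 344 CPM in the medium and 519 and 512 CPM in the high libraries, those of oligodendrocytes to 48.5 and 56.9 CPM and 13.6 and 9.29 CPM, and those of red blood cells to 1.54 and 2157 CPM and 306 and 435 CPM. The part of these in the results was not tested.

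**Figure D4:**
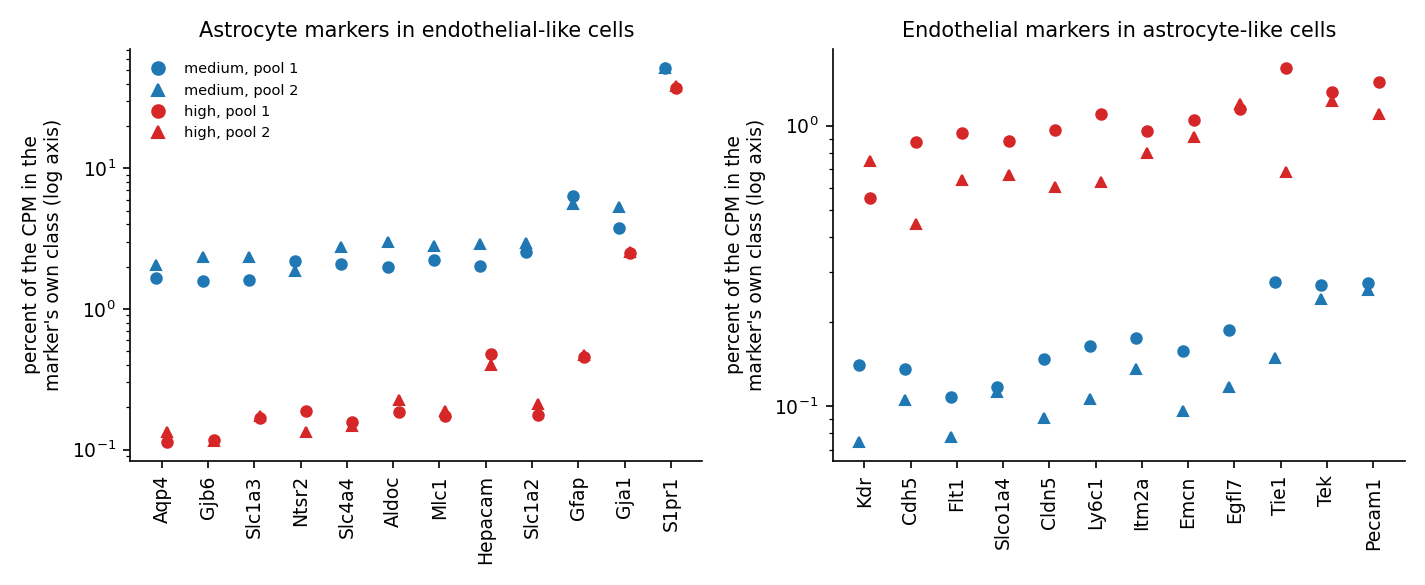
Level of each of the 12 astrocyte markers in endothelial-like cells (left) and of each of the 12 endothelial markers in astrocyte-like cells (right), in percent of the level in the marker's own class in the same library (log axis), for medium (blue) and high (red) libraries of pool 1 (circles) and pool 2 (triangles). The median astrocyte marker lies at 2.15% and 2.86% (medium) and 0.181% and 0.201% (high), with S1pr1 far above the others, and the median endothelial marker at 0.160% and 0.109% (medium) and 1.01% and 0.714% (high).

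Compared with ATV-CD98hc, 16 of 13853 genes changed differently from medium to high in endothelial-like cells (0.115%), and all 16 had the lower change with ATV-TfR. The endothelial-like cells of these groups sat in different clusters. Cluster 20, with Bmx among its leading genes, held 64.4% and 67.6% of them in the medium and 28.7% and 26.8% in the high libraries of ATV-TfR, against 35.8% and 29.9% and then 28.2% and 22.4% with ATV-CD98hc. The part of this make-up in the differences was not tested. Bmx was lower in the high bin with both antibodies, and by more with ATV-TfR. With ATV-CD98hc it stood at 34.8 and 35.2 CPM in the medium and at 26.6 and 23.7 CPM in the high libraries. The difference was -1.54 (SE 0.257, edgeR adjusted p = 0.0249). The long noncoding RNA Mannr differed by -1.41 (SE 0.23, edgeR adjusted p = 0.0249). Trpm3, Mir99ahg and Ntm, with differences of -2.08, -1.83 and -1.77, have their highest level in astrocyte-like cells. Astrocyte markers in endothelial-like cells of the medium libraries summed to 931 and 1146 CPM with ATV-TfR and to 530 and 557 CPM with ATV-CD98hc. The part of this RNA in the differences was not tested. No gene passed without ATV-TfR medium pool 2 or without ATV-TfR high pool 2, and with pools as a block 416 passed. For Tfrc, at 602 and 453 CPM and then 671 and 499 CPM with ATV-CD98hc, the difference was 0.95 (SE 0.277) and did not pass (edgeR adjusted p = 0.253).

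The astrocyte-like cells of the high bin were few, and had more RNA of Gfap, C4b and Slc1a2 than the many astrocyte-like cells of the medium bin. The sums came from 10465 and 10293 cells in the medium and 567 and 391 cells in the high libraries. Of 16734 genes tested, 612 rose and 319 fell in the high bin, together 931 (5.56%; 3.66% rose and 1.91% fell), with a median log2 change of -0.03. The levels of the bins did not overlap for 54.1% of the genes. Counts within gene lists are to be read against the 3.66% of all genes that rose and the 1.91% that fell. Leaving out high pool 1 cut the number that passed to 120, and the other 3 libraries to between 405 and 809. Median depth per astrocyte-like cell was 4081 and 4136 UMIs in the medium and 4997 and 5660 in the high libraries, and its part in the results was not tested.

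All 12 endothelial markers rose in astrocyte-like cells (median log2 change 2.89). The calls for Emcn, Tek, Tie1, Kdr, Cdh5, Pecam1 and Ly6c1 were lost in at least 1 fit that left out a library. The 12 markers summed to 43.6 and 30.4 CPM in the medium and 295 and 213 CPM in the high libraries. That was 0.155% and 0.109% and then 0.997% and 0.728% of their level in endothelial-like cells of the same library. None was at 0. Of the 612 genes that rose, 169 (27.6%) are highest in endothelial-like cells, against 8.79% of all genes tested. Another 61 of the rises (9.97%) are highest in astrocyte-like cells, against 16.04% of all genes tested. These 61 are 0.365% of the genes tested. In astrocyte-like cells without a UMI of the 12 endothelial markers, 222 genes passed (1.37%). Such cells were 85.2% and 88.9% of the astrocyte-like cells of the medium libraries. In the high libraries they were 32.8% and 38.1% of 567 and 391 cells. The part of these cell numbers in lost calls was not tested. Within the largest cluster of both bins, cluster 1, 529 genes passed (3.58%), and within cluster 5, 123 (0.863%).

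Gfap, the intermediate filament of fibrous and reactive astrocytes, went from 80.3 and 73.0 CPM in the medium to 284 and 267 CPM in the high libraries. The bins did not overlap, and the pools lay close together. The log2 change was 1.90 (SE 0.151, edgeR adjusted p = 2.99e-05) and 1.92 in cells without an endothelial UMI (edgeR adjusted p = 1.54e-04), and it was positive in 4 of 4 mice. In endothelial-like cells of the high bin Gfap stood at 1.29 and 1.26 CPM. Over the whole series its highest level was in ependymal-like cells. The white matter and glia limitans list, genes of astrocytes in fibre tracts and at the brain surface to which Gfap belongs, had 5 rises and no fall among 14 genes (Gfap, Nnat, Cd9, Fabp7, Id1; median log2 change 0.43). The calls for Cd9, Fabp7 and Id1 were lost in at least 1 fit that left out a library, and Id1 did not pass in cells without an endothelial UMI. Nnat, a membrane proteolipid of the endoplasmic reticulum, went from 738 and 661 CPM to 1178 and 1098 CPM (log2 change 0.76, SE 0.0803, edgeR adjusted p = 2.21e-04).

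Among immune and reactive genes, C4b, a complement component, went from 35.8 and 37.7 CPM to 79.5 and 76.9 CPM (log2 change 1.15, SE 0.111, edgeR adjusted p = 1.17e-04), and by 1.15 as well in cells without an endothelial UMI. B2m, the light chain of class I MHC and of the neonatal Fc receptor, went from 41.3 and 43.6 CPM to 83.8 and 69.2 CPM (log2 change 0.92, SE 0.0916, edgeR adjusted p = 1.39e-04). Both genes were higher in both pools. In cells without an endothelial UMI, B2m rose by 0.92 (edgeR adjusted p = 0.00221). Of 15 tested genes of the reactive list, 5 rose and none fell (median log2 change 0.77). Of these calls only that of C4b held in every fit that left out a library, those of S100a10, Gbp2, Osmr and H2-D1 being lost in at least 1, and Gbp2, Osmr and H2-D1 did not pass in cells without an endothelial UMI. Of 16 interferon response genes, 6 rose (Gbp2, Irf7, Isg15, Ifitm3, Bst2, Ifit3), 4 of which are highest in endothelial-like cells. All but the call for Ifitm3 were lost in at least 1 fit that left out a library, and none of the 16 passed in cells without an endothelial UMI.

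Of 12 genes for clearing glutamate, GABA and glycine, 5 rose and none fell. Slc1a2, the main glutamate carrier GLT-1, went from 6688 and 7118 CPM to 10268 and 10587 CPM (log2 change 0.65, SE 0.0558, edgeR adjusted p = 5.23e-05), and Slc1a3, the carrier GLAST, from 2880 and 3047 CPM to 3805 and 3945 CPM (log2 change 0.45, SE 0.0567, edgeR adjusted p = 9.31e-04). Neither overlapped between the bins. Glul, glutamine synthetase, changed by 0.27 (edgeR adjusted p = 0.0207), a call lost in 3 of 4 fits that left out a library. The other calls, for Aldh5a1 and the endothelial carrier Slc38a5, were lost in such fits too. In cells without an endothelial UMI, Slc1a2 and Slc1a3 passed, Glul and Aldh5a1 did not, and Slc38a5 could not be tested.

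Of 15 endfoot and gap junction genes, 3 rose and none fell, against 3.66% and 1.91% of all genes tested in astrocyte-like cells. Mlc1, a membrane protein of perivascular endfeet, went from 377 and 375 CPM to 619 and 600 CPM (log2 change 0.76, SE 0.0549, edgeR adjusted p = 2.31e-05). Aqp4, the endfoot water channel, went from 829 and 796 CPM to 985 and 869 CPM (log2 change 0.25, SE 0.065, edgeR adjusted p = 0.0413), and Dag1, dystroglycan, rose by 0.40. The call for Aqp4 held in 1 of the 4 fits that left out a library, and that for Dag1 was lost in at least 1. In cells without an endothelial UMI Mlc1 passed while Aqp4 and Dag1 did not.

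None of 18 genes of sterol synthesis and uptake passed in astrocyte-like cells, and of 16 tested genes for lipoproteins and phagocytosis 5 rose and none fell (Apoe, Clu, Scarb2, Axl, Gas6; median log2 change 0.16). The calls for Axl and Gas6 were lost in at least 1 fit that left out a library and in cells without an endothelial UMI. Outside these lists, Scd2, a fatty acid desaturase, went from 928 and 985 CPM to 1659 and 1717 CPM (log2 change 0.88, SE 0.0592, edgeR adjusted p = 1.93e-05), and Fads1, another desaturase, from 180 and 175 CPM to 251 and 241 CPM (log2 change 0.53, SE 0.0617, edgeR adjusted p = 5e-04). Apoe, the main lipoprotein of astrocytes, went from 21498 and 20972 CPM to 28577 and 25512 CPM (log2 change 0.41, SE 0.0623), and Clu, clusterin, from 3444 and 3722 CPM to 5193 and 4879 CPM (log2 change 0.55, SE 0.0685). Of 32 lysosome genes, 8 rose and none fell (median log2 change 0.14). The calls for Ctsd, Lamp1, Ctsh, Grn and Npc2 were lost in at least 1 fit that left out a library, and 5 of the 32 genes passed in cells without an endothelial UMI. Psap, the precursor of the saposins, rose from 708 and 788 CPM to 1065 and 1046 CPM (log2 change 0.56, SE 0.0717, edgeR adjusted p = 9.94e-04), Ctsb, a protease, by 0.47 and Scarb2, a membrane receptor of lysosomes, by 0.51. Within cluster 5, Apoe, Ctsb and Scarb2 did not pass, nor did B2m and Dag1.

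Tfrc also rose in astrocyte-like cells. It stood at 39.1 and 44.4 CPM in the medium and at 66.8 and 59.3 CPM in the high libraries, against 23.9 and 23.9 CPM in the negative and 30.5 and 31.9 CPM in the low libraries. The log2 change was 0.66 (SE 0.102, edgeR adjusted p = 0.00304) and 0.53 in cells without an endothelial UMI, where it did not pass (edgeR adjusted p = 0.162), nor did it within cluster 5 (edgeR adjusted p = 0.198). Slc40a1, at 2.02 and 2.11 CPM against 7.68 and 6.79 CPM, and Fth1, the ferritin heavy chain (log2 change 0.29), were the other iron genes of 20 tested that rose. Of these, Slc40a1 stood far higher in endothelial-like cells. The median endothelial marker reached 1.01% and 0.714% of its endothelial level in astrocyte-like cells of the high libraries. The part of such RNA in the rise of Slc40a1 was not tested. All 3 calls were lost when high pool 1 was left out.

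**Figure D5:**
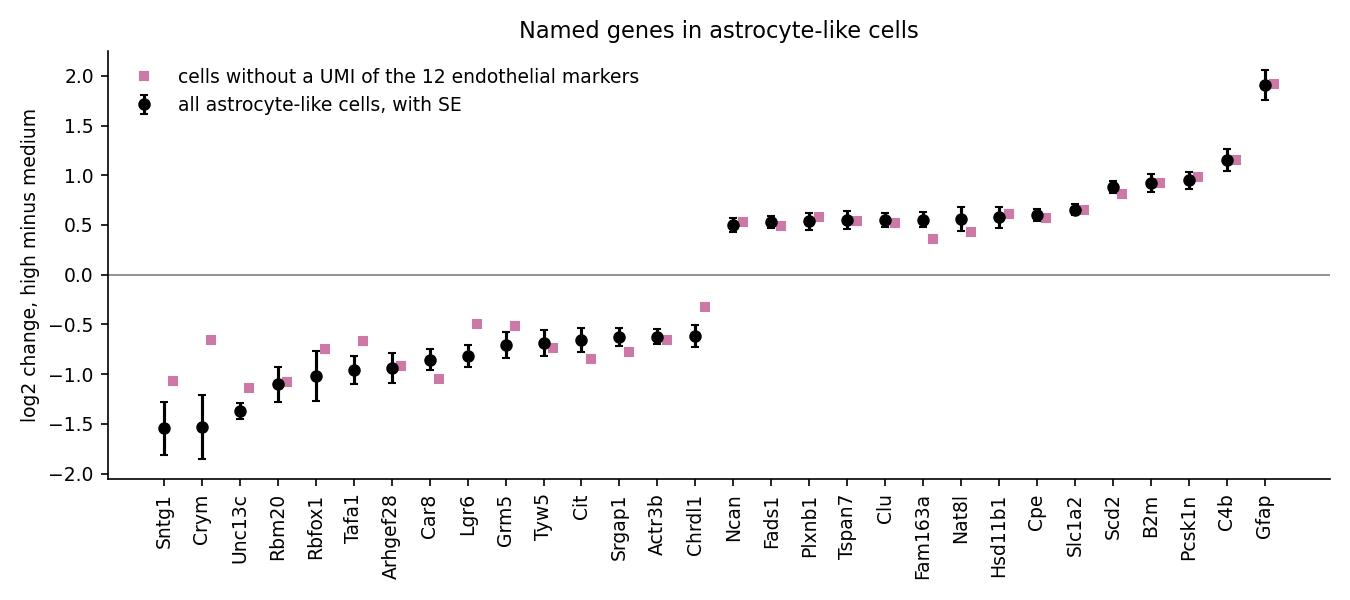
Log2 change, high minus medium, of 30 genes in astrocyte-like cells (black points with SE) and in astrocyte-like cells without a UMI of the 12 endothelial markers (pink squares), ordered by the change. Gfap, C4b, Pcsk1n, B2m and Scd2 lie highest, and the pink squares of Crym and Sntg1 lie closer to 0 than their black points.

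Unc13c, a priming factor of vesicle release with its highest level in pericyte-like cells, fell in astrocyte-like cells from 110 and 105 CPM to 39.4 and 40.7 CPM (log2 change -1.37, SE 0.0827, edgeR adjusted p = 1.02e-05). Of the 319 genes that fell, 132 (41.4%) have their highest level in astrocyte-like cells, against 16.04% of all genes tested. Car8, a protein related to carbonic anhydrases, fell from 38.1 and 38.1 CPM to 19.4 and 21.3 CPM (log2 change -0.85, SE 0.103, edgeR adjusted p = 6.66e-04), and Lgr6, a receptor for R-spondins, from 54.8 and 50.1 CPM to 28.1 and 29.0 CPM (log2 change -0.82, SE 0.109, edgeR adjusted p = 0.00116). Tafa1, Srgap1, a GTPase-activating protein, and Actr3b fell by 0.96, 0.63 and 0.63. These calls held in each fit that left out a library. In cells without an endothelial UMI, Lgr6 changed by -0.50 (edgeR adjusted p = 0.156) and Tafa1 by -0.66 (edgeR adjusted p = 0.0658) and did not pass, while Unc13c, Car8, Srgap1 and Actr3b did. Within cluster 1, Tafa1 changed by -0.11 (edgeR adjusted p = 0.921) and the other 5 of these genes passed. Within cluster 5 only Unc13c passed. There Car8 stood at -0.24 (edgeR adjusted p = 0.899) and Srgap1 at -0.23 (edgeR adjusted p = 0.293). Tafa1 (-0.86), Actr3b (-0.61) and Lgr6 (-0.56) kept more of their change there without passing.

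Falls of Sntg1, a syntrophin (log2 change -1.55), Crym, a crystallin that binds thyroid hormone (-1.53), Rbm20 and Rbfox1, which regulate splicing (-1.10 and -1.02), Arhgef28 (-0.94), Grm5, a glutamate receptor (-0.71), Tyw5 (-0.69), Cit, a kinase of cell division (-0.66), and Chrdl1, a secreted BMP antagonist (-0.62), were lost in at least 1 such fit. Of these 9, Rbm20 and Cit passed in cells without an endothelial UMI. Among those that did not pass there, Tyw5 stood at -0.74, while Sntg1 (-1.07) and Grm5 (-0.52) changed less than over all astrocyte-like cells. Within cluster 1, the largest astrocyte-like cluster, Sntg1 stood 0.43 higher in the high bin (edgeR adjusted p = 0.753) and Grm5 was at 0.0070. Within cluster 5 both fell and passed, with log2 changes of -1.63 for Sntg1 (edgeR adjusted p = 0.00892) and -0.99 for Grm5 (edgeR adjusted p = 0.00524). Rises lost in at least 1 fit that left out a library were those of Hsd11b1, which activates glucocorticoids (0.58), Nat8l, which makes N-acetylaspartate (0.56), Fam163a (0.55), Tspan7 (0.55) and Plxnb1, a semaphorin receptor (0.54). Of these, Nat8l and Fam163a did not pass in cells without an endothelial UMI. Within cluster 5 none of these rises passed. There Hsd11b1 stood at 0.20, Fam163a at 0.092, Tspan7 at -0.061, Plxnb1 at 0.42 and Nat8l at 0.56. Cpe, a carboxypeptidase of peptide hormones, rose by 0.60, Pcsk1n, an inhibitor of prohormone cleavage, by 0.95 and Ncan, the matrix proteoglycan neurocan, by 0.50, and these held. Of the genes that separate forebrain astrocytes from those of other regions, 1 of 8 tested telencephalic genes fell (Crym), and of 11 tested non-telencephalic genes 1 rose (Sparc) and 3 fell (Pax3, Irx5, Otx2). The calls for Crym, Pax3, Irx5 and Otx2 were lost in at least 1 fit that left out a library and in cells without an endothelial UMI, and that for Sparc held in both.

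Compared with ATV-CD98hc, 265 of 14740 genes changed differently in astrocyte-like cells (1.80%), 219 with the higher (1.49%) and 46 with the lower change (0.312%) in ATV-TfR. The astrocyte-like cells of these groups sat in different clusters. Cluster 1, with Lhx2 and Crym among its leading genes, held 35.6% and 39.6% of them in the medium and 45.7% and 46.0% in the high libraries of ATV-TfR, against 14.7% and 17.9% and then 6.08% and 9.76% with ATV-CD98hc. Cluster 10 held 13.1% and 9.21% of them in the high libraries of ATV-TfR and 39.8% and 47.8% in those of ATV-CD98hc. The part of this make-up in the differences was not tested. Gfap stood at 74.4 and 105 CPM in the medium and 86.3 and 66.8 CPM in the high libraries of ATV-CD98hc, a difference of 2.20 (SE 0.296, edgeR adjusted p = 4.68e-04). Lhx2, a transcription factor of the forebrain, stood at 62.2 and 74.5 CPM and then 20.3 and 28.8 CPM with ATV-CD98hc, and at 110 and 137 CPM and then 146 and 169 CPM with ATV-TfR (difference 1.98, SE 0.346, edgeR adjusted p = 0.00426). Nkx6-2, a homeobox gene, stood at 106 and 104 CPM and then 78.8 and 87.8 CPM with ATV-TfR, and at 156 and 140 CPM and then 350.1 and 390.1 CPM with ATV-CD98hc (difference -1.52, SE 0.204, edgeR adjusted p = 4.68e-04).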

How the data were processed

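The authors deposited raw UMI counts per gene and barcode, per the file headers made with Cell Ranger 7.1.0. The submitters' processing notes name mm10, GRCm38 and Seurat 4 and 5. The members and all gene lists were chosen with earlier results of these data known. Filters on cells were 500 genes and 800 UMIs as minimum and 10% mitochondrial UMIs as maximum. Scrublet scores then set the doublets removed, 0.8% per 1000 cells of a library (12.4% to 15.6% in these libraries). All cells were clustered with scanpy 1.11.5 (Leiden, resolution 1, 2000 variable genes without Tfrc, Slc3a2 and sex, mitochondrial and ribosomal genes). A cluster could take a class name where at least 50% and at least 3 of a marker list were detected (in 5% of cells, at 25% of the highest level). It stayed unnamed where lists of unrelated cells both reached that or where its leading genes went against the name. A cluster of low depth also stayed unnamed if no marker of the list was among its leading genes. Genes of endothelial zones and astrocyte regions counted as markers of their class only in this check of leading genes. Of 32 clusters, 21 were named in 10 classes, and 11 unnamed ones held 4.87% of cells, so class shares rest on rebuilt names.

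Counts were summed per class and library (at least 20 cells) and tested with edgeR 4.0.16 (quasi-likelihood test, TMM factors, Benjamini-Hochberg adjustment, called below 0.05), in R 4.3.3, over the 8 ATV-TfR libraries, or 16 where ATV-CD98hc entered. Class numbers were tested likewise. SE is the log2 change over the root of F. Sums per class are not doublet-free, and class RNA carried over was measured, not removed. Genes named beyond the lists are, among calls with a mean log2 CPM of at least 5 moving alike in both pools and without predicted, mitochondrial and ribosomal genes, the 10 widest rises and falls highest in the class itself and the 5 of other genes, and the 5 widest each way for the difference from ATV-CD98hc. Some genes that this rule names are not reported here. The bins of a pool come from the same mice. Pool deviations of the bins correlated at 0.472 over 5610 genes in endothelial-like and at 0.323 over 5591 genes in astrocyte-like cells. With 2 pools per bin, p-values rest on the spread between pools. The main fits had no term for the pool, so their p-values do not use the pairing of bins. The spread is shared with the negative and low bins, whose ATV-TfR libraries held 78 to 305 endothelial-like cells. On simulated counts, the test recovered 75% of 2-fold and 99% of 4-fold changes for endothelial-like sums (12409 genes simulated). For astrocyte-like sums it recovered 59% and 89% (16734 genes simulated). Changes were set in 100 well-counted genes per fold size, with the same spread for every gene and no pool effect. These values therefore do not give the recovery over all genes tested or at the spread of the real pools. Alternatives were the pool as a block, other library sets, cell and gene filters, DESeq2 1.42.0, sums per mouse and each library left out.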

Additional observations from a re-analysis of the deposited data

Results flagged for a closer look

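The change from the medium to the high bin differed between ATV-TfR and ATV-CD98hc by edgeR's test of the difference of log2 changes (ATV-TfR minus ATV-CD98hc) for 5 cell classes and for 15 named genes. Antibody and genotype cannot be told apart in these differences.

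Among the classes, the difference was 2.20 for endothelial-like, -2.34 for astrocyte-like, -3.23 for fibroblast-like and -3.65 for ependymal-like cells. It was -1.37 for border macrophage-like cells (SE 0.506, edgeR adjusted p = 0.0163). These were 0.610% and 0.506% of the medium and 1.70% and 0.963% of the high ATV-CD98hc libraries. All these differences are by share of kept cells. Outside the endothelial-like class, border macrophage-like cells rose with both antibodies. Their mean share there went from 0.734% to 6.02% with ATV-TfR and from 2.96% to 14.9% with ATV-CD98hc. Differences by that share were not tested.

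In endothelial-like cells the difference was -2.08 for Trpm3, -1.83 for Mir99ahg, -1.77 for Ntm, -1.54 for Bmx and -1.41 for Mannr. Of the 8 fits that left out a library, Trpm3 and Mir99ahg passed in 6 and Ntm, Bmx and Mannr in 5. Trpm3, a cation channel, stood at 69.9 and 93.2 CPM in the medium and at 7.503 and 6.32 CPM in the high bin of ATV-TfR, against 18.7 and 25.9 CPM and then 7.01 and 9.51 CPM with ATV-CD98hc. Cluster 20, led by arterial genes, held 64.4% and 67.6% of endothelial-like cells in the medium libraries of ATV-TfR and 35.8% and 29.9% in those of ATV-CD98hc. Trpm3, Mir99ahg and Ntm are highest in astrocyte-like cells. Astrocyte markers in endothelial-like cells summed to 931 and 1146 CPM in the medium libraries of ATV-TfR and to 530 and 557 CPM in those of ATV-CD98hc. In the high libraries they summed to 455 and 495 CPM and to 446 and 383 CPM. The part of either in the differences was not tested.

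In astrocyte-like cells the difference was 2.20 for Gfap, 2.01 for Igfbp2, 1.98 for Lhx2, 1.89 for Emx2 and 1.85 for Hopx. It was -1.57 for Efna5, -1.52 for Nkx6-2, -1.47 for Cdh22, -1.14 for Cit and -1.06 for Zfp692. The change with ATV-TfR itself did not pass for Igfbp2 (0.14), Lhx2 (0.40), Emx2 (0.32), Efna5 (-0.76) and Zfp692 (-0.49). Emx2 stood at only 8.88 and 7.59 CPM in the high libraries of ATV-CD98hc. Of the 8 fits that left out a library, Gfap, Igfbp2, Nkx6-2 and Cit passed in all, Lhx2 and Hopx in 7, Emx2 and Cdh22 in 6, Efna5 in 5 and Zfp692 in 3. Igfbp2, a carrier of insulin-like growth factors, stood at 268 and 290 CPM and then 312 and 276 CPM with ATV-TfR, and at 148 and 188 CPM and then 36.8 and 62.2 CPM with ATV-CD98hc. The high ATV-CD98hc libraries held 181 and 205 astrocyte-like cells. Clusters 5 and 10 held 47.5% and 39.8% of these in pool 1 and 30.7% and 47.8% in pool 2, against 30.3% and 13.1% and then 28.9% and 9.21% with ATV-TfR. Cluster 1 held 6.08% and 9.76% of them, against 45.7% and 46.0% with ATV-TfR. The part of these clusters in the differences was not tested.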

How the results depend on the processing

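Directions held in most alternatives, while counts of called genes moved with the fit. The 9 classes called became 7 to 8 with 1 library left out, and the 5 differing from ATV-CD98hc 4 to 6. The 1863 genes called in endothelial-like cells became 3117 with the pool as a replicate block, 1167 over all 23 libraries, 825 under a stricter low-count filter, 356 without astrocyte UMIs, 710 in the largest cluster (cluster 21), 1058 and 532 in clusters 20 and 22 alone, and 867 to 1094 with 1 library left out. The 931 in astrocyte-like cells became 1850 with the block, 464 over all 23 libraries, 384 under a stricter cell filter, 222 without endothelial UMIs, 529 in cluster 1, 123 in cluster 5, 1895 per mouse with a block, and 120 to 809 with 1 library left out. The 16 differences from ATV-CD98hc in endothelial-like cells became 416 with the block, 35 with doublets kept, 30 under a stricter cell filter, 155 with no low-count filter, 130 with DESeq2 and 0 to 76 with 1 library left out. The 265 in astrocyte-like cells became 487, 79 (stricter cell filter), 577 (no low-count filter), 152 (stricter low-count filter), 419 (DESeq2) and 111 to 294. The block took away no call of the expression comparisons between the bins: all 1863 and all 931 genes passed with it too. Over all 23 libraries the median log2 change of endothelial-like cells shifted by 0.0908.

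Among cells outside the endothelial-like class the log2 change turned for microglia-like (1.29), border macrophage-like (3.02), oligodendrocyte-like (0.57), smooth muscle-like (1.86), fibroblast-like (0.23) and choroid plexus epithelial-like cells (1.60). That of border macrophage-like cells also turned with doublets kept (0.081), in male (0.28) and female cells (0.28), per mouse (0.28, and 0.29 with a block) and with 1 library left out (-0.47 to 0.35, the highest without medium pool 1). The difference turned for microglia-like cells with 1 library left out (-1.47 to 0.065, the highest without ATV-CD98hc high pool 1) and for oligodendrocyte-like cells (-0.15 to 2.44, the lowest without ATV-TfR high pool 1). Within single clusters it turned for Fmo2 (-0.0089) and Ccn2 (-0.17) in cluster 22, Sema3g (0.74) in cluster 21, Sntg1 (0.43) and Grm5 (0.0070) in cluster 1, and Rbfox1 (0.21), Tspan7 (-0.061) and Chrdl1 (0.70) in cluster 5. The cause was not tested. Without astrocyte UMIs Plvap was at 0.00, with no direction. The fits in clusters 20, 22 and 5, and that without cells holding RNA of both sexes (1784 and 899 called), were chosen after seeing the data. The astrocyte-like sums of the high bin, 2994040 and 2209862 UMIs, limit what can be detected there.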
